A study of Mus musculus with 4 samples.

Results

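Cerebellins are small secreted proteins of the C1q family that organize synapses, and the genes described here are 4 cerebellin genes and 3 genes of their receptors. They were taken by gene symbol from the platform's probe annotation: Cbln1, Cbln2, Cbln3 and Cbln4, the delta-type glutamate receptor gene Grid1, and the neurexin genes Nrxn2 and Nrxn3. All 7 were found among the 19938 genes with a single symbol, each with 1 probe set, and 6 of them reached the expression filter that 11013 genes passed. The filter asks for a mean over the 4 arrays of at least 7.11 on the log2 scale, which is the median of all probe set means, and Cbln3 stayed below it. The members were chosen by a list put together with the differences measured between these 4 arrays in view, ethanol against PBS in each tissue among them, so their values are a description and carry no test.

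RNA came from embryonic day 18 fetuses of C57BL/6J mice. Dams had been given ethanol (2.9 g/kg each day, 15% by volume) or phosphate-buffered saline (PBS) into the stomach on 5 days, embryonic day 8 to day 12. Forebrain and hippocampus were each profiled after either treatment, which gives 4 groups with 1 Affymetrix array each. No difference between arrays has a replicate check, and the labels do not say how many embryos or litters an array stands for. In such tissue RNA, fewer cells of a type and less RNA per cell cannot be told apart.

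Cerebellins are released by axons and bridge the synaptic cleft: on the presynaptic side they bind neurexins that carry the splice segment known as SS4, and on the postsynaptic side they bind delta-type glutamate receptors such as the product of Grid1. Cbln1 is best known for holding together synapses between cerebellar granule cells and Purkinje cells, and Cbln1, Cbln2 and Cbln4 are also made by neurons of the forebrain, the thalamus among them. Cbln3 is a partner that depends on Cbln1 for its secretion and is known from cerebellar granule cells. Neurexins are transcribed from several promoters and spliced in many ways, and 1 probe set per gene cannot tell these forms apart.

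The arrays had medians of 7.11 to 7.13 over all probe sets. Over the kept genes the median was 8.57 on the hippocampus ethanol array and 8.66 to 8.68 on the others, so that the median ethanol difference over kept genes was -0.08 in hippocampus and -0.01 in forebrain. Markers of hippocampal fields were split between the tissues: 6 of 11 read higher in hippocampus than in forebrain after PBS and 5 of 11 after ethanol. Of all kept genes 52.4% did after PBS and 30.4% after ethanol. Zbtb20, a transcription factor gene of hippocampal pyramidal neurons, was higher in hippocampus in both (0.35 and 0.23), and Prox1, a dentate gyrus transcription factor gene, was lower in both (-0.16 and -0.33). Sex-linked genes differed between the arrays as well. The Y-linked gene Eif2s3y read 7.94 and 8.83 in forebrain after PBS and ethanol and 8.79 and 8.46 in hippocampus, and the part of this in any result was not tested.

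The upstream sequences of a cerebellin gene that read higher after ethanol in both tissues, Cbln4, and of the one that stayed below the filter, Cbln3, are shown here to set the start regions of these relatives side by side. Each line is the 250 bases before the RefSeq start site of assembly GRCm38.p6, 5′ to 3′ on the gene's strand, which for both is the minus strand, at chr2:172043467-172043716 for Cbln4 and chr14:55884257-55884506 for Cbln3. Capitals mark matches, on either strand, to a TATA box spelled TATAAA, the element known as CCAAT, the GC box spelled GGGCGG, an E-box spelled CANNTG, a full cyclic AMP response element spelled TGACGTCA, or a TCF/LEF site spelled CTTTGAT.
Cbln4: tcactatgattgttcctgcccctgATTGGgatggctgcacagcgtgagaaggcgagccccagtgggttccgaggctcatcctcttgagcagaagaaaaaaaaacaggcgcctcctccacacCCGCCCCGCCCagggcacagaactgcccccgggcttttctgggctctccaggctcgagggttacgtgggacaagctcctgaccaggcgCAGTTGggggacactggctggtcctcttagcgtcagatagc
Cbln3: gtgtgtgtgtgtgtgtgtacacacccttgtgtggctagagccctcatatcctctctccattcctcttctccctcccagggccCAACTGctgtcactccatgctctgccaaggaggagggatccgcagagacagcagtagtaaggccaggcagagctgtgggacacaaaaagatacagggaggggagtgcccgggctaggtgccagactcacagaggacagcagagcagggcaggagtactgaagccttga
The Cbln4 window held a CCAAT match on the opposite strand with its first base at -226 from the start site, GC boxes on the opposite strand at -129 and -124, which overlap by 1 base, and an E-box at -41. The Cbln3 window held 1 E-box, at -168. Of 32851 windows of the same length, 33.8% held CCAAT, 32.7% a GC box and 66.2% an E-box. The TATA box (12.4% of windows), the cyclic AMP element (1.55%) and the TCF/LEF site (3.21%) were in neither sequence. These matches describe letters and are no evidence of binding. Windows were also taken for Nrxn3, with 3 start sites, and none was taken for Cbln1, Cbln2, Grid1 or Nrxn2.

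Among the ligands, Cbln2 had the largest ethanol difference in hippocampus and Cbln4 the largest in forebrain. Cbln2 encodes a secreted synapse organizer made by many forebrain neurons. Its log2 level was 9.11 in forebrain after PBS, 9.44 in forebrain after ethanol, 8.40 in hippocampus after PBS and 9.43 in hippocampus after ethanol. The hippocampus PBS array was the low one, and the ethanol arrays of both tissues were nearly level. The ethanol difference in hippocampus was 1.03, or 2.04-fold, and in forebrain it was 0.33, or 1.26-fold. In hippocampus 6 of the 11013 kept genes, Cbln2 included, were higher by as much, and in forebrain 35 were.

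Cbln4 encodes the cerebellin that binds neurexins and, by earlier reports, the netrin receptor DCC. Its levels were 7.58 and 8.09 in forebrain after PBS and ethanol, and 7.11 and 7.69 in hippocampus. Ethanol arrays were the higher ones in each tissue, by 0.52 (1.43-fold) in forebrain and 0.58 (1.49-fold) in hippocampus, so the tissues differed little in this respect. Only 7 kept genes were higher by as much in forebrain and 58 in hippocampus. The hippocampus PBS level lay at the filter value of 7.11.

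Cbln1, the founding cerebellin, read 8.57 and 8.82 in forebrain after PBS and ethanol and 8.13 and 8.35 in hippocampus. Both ethanol arrays were higher, by 0.25 (1.19-fold) in forebrain and 0.22 (1.16-fold) in hippocampus, and both hippocampus arrays were below both forebrain arrays. In forebrain 94 kept genes were higher by as much, and in hippocampus 670 were. Cbln3 read 6.25 and 6.09 in forebrain and 6.18 and 6.20 in hippocampus. All of its values were below the filter value and spanned 0.16, so no order of the arrays can be read from them. Of 7 markers of cerebellar granule cells, where Cbln3 is known to act, 5 were below the filter, among them Gabra6, the granule cell GABA receptor subunit, at 4.66 to 4.99 and Atoh1, the granule lineage factor, at 5.49 to 5.86. The other two, Pax6 and Neurod1, which other neural lineages also use, had mean levels of 8.38 and 8.78.

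The receptor genes differed after ethanol by less than Cbln2 and Cbln4 in hippocampus, though Nrxn3 and Grid1 differed there as much as Cbln1, and in forebrain by less than those 3 cerebellins. Grid1, which encodes the postsynaptic receptor GluD1, read 9.00 and 9.01 in forebrain after PBS and ethanol, and 8.64 and 8.86 in hippocampus. It was level in forebrain (0.01) and 0.22 higher after ethanol in hippocampus. Nrxn2, a presynaptic neurexin gene, read 9.60 and 9.64 in forebrain and 9.33 and 9.43 in hippocampus, with ethanol differences of 0.04 and 0.11. Nrxn3, another neurexin gene, read 10.37 and 10.33 in forebrain and 10.25 and 10.54 in hippocampus. Its ethanol difference was 0.29 in hippocampus and -0.04 in forebrain, and it was the single member with its highest level on the hippocampus ethanol array.

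**Figure D1:**
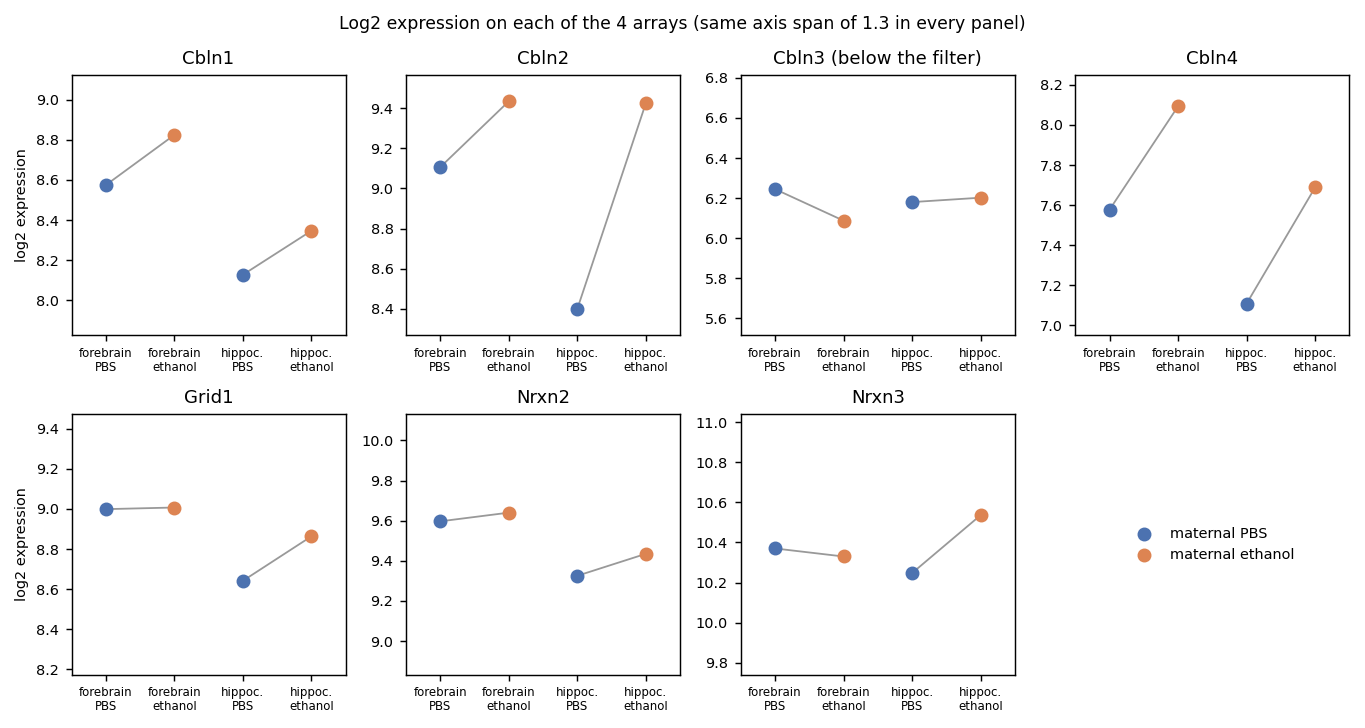
Log2 expression (y axis, the same span in every panel) of the 7 genes on each of the 4 arrays (x axis), 1 point per array, with lines joining PBS (blue) to ethanol (orange) within a tissue. Cbln1, Cbln2 and Cbln4 are higher after ethanol in both tissues, and Cbln2 on the hippocampus PBS array, at 8.40, is the low point of its panel.

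Past a 1.5-fold threshold, a difference of 0.58 on the log2 scale, 1 of 7 members was higher after ethanol in hippocampus, namely Cbln2, where 0.49% of kept genes were. Cbln2 also passed 2-fold, as did 0.0545% of kept genes, and Cbln4 fell just short of 1.5-fold. In forebrain 0 of 7 members passed, against 0.0454% of kept genes. Without regard to size, 7 of 7 members read higher after ethanol in hippocampus (median 0.22), where 30.7% of kept genes did, and 5 of 7 in forebrain (median 0.04), where 46.1% did. These counts use the contrasts in view when the genes were chosen, so nothing is read from them. Cbln3 in hippocampus read -0.02 after quantile normalization, and the other signs held under each scaling tried. With each array centred on its median over kept genes, the kept genes past 1.5-fold in hippocampus split into 116 higher and 19 lower, against 54 and 47 as deposited, and 88 and 31 after quantile normalization.

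**Figure D2:**
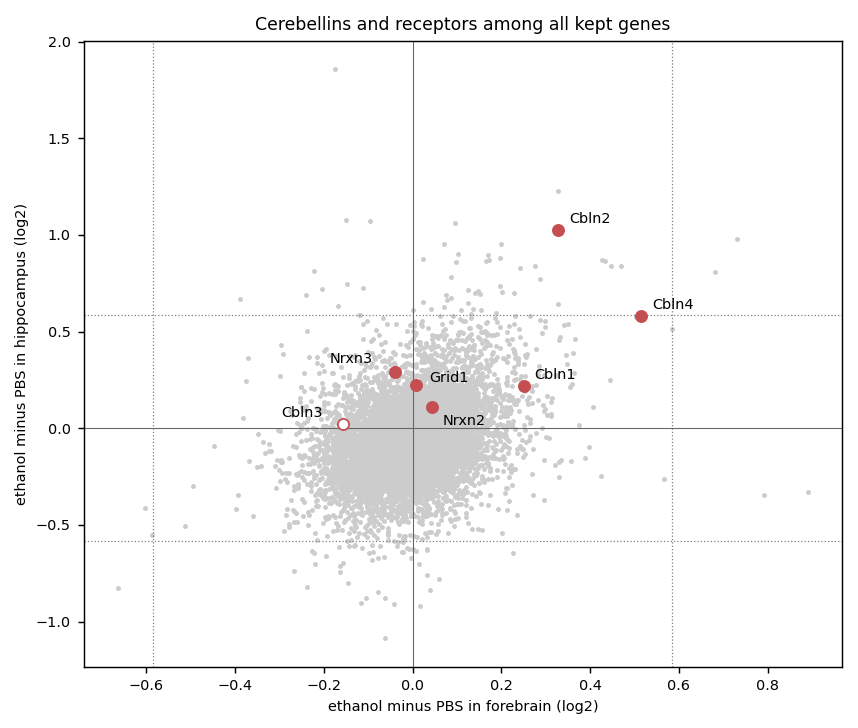
Ethanol minus PBS difference in forebrain (x axis, log2) against that in hippocampus (y axis, log2) for the 11013 kept genes (grey) and the 7 members (red, with Cbln3, below the filter, as an open circle). Dotted lines mark 1.5-fold. Cbln2 and Cbln4 lie at the upper right edge of the cloud, at 0.33 and 1.03 and at 0.52 and 0.58, and the receptor genes lie within it.

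The hippocampus ethanol differences rest on a single PBS array, on which 6 of 7 members had their lowest level of the 4 arrays, as had 19.9% of kept genes. A deviation of that array and a difference after ethanol cannot be told apart in hippocampus. The forebrain differences of Cbln4 (0.52), Cbln2 (0.33) and Cbln1 (0.25) do not involve it. They rest in the same way on a single forebrain PBS array, with the same limit. The ethanol difference in hippocampus exceeded that in forebrain by 0.70 for Cbln2, and 25 kept genes had an excess as large. The excess was 0.33 for Nrxn3, 0.21 for Grid1, 0.07 for Nrxn2, 0.06 for Cbln4 and -0.03 for Cbln1. With 1 array per group this interaction has no test.

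Between tissues, which share these arrays with the comparisons above, 7 of 7 members read lower in hippocampus than in forebrain after PBS, as did 47.5% of kept genes, Cbln2 by -0.71, Cbln4 by -0.47, Cbln1 by -0.45, Grid1 by -0.36, Nrxn2 by -0.27, Nrxn3 by -0.12 and Cbln3 by -0.06. Past 1.5-fold, 1 of 7 was lower, against 1.19% of kept genes. After ethanol 5 of 7 read lower, as did 69.6% of kept genes, and the order was another: Cbln1 was lower by -0.48 and Cbln4 by -0.40, while Cbln2 was level at -0.01, a sign that turned to 0.04 after quantile normalization and to 0.08 with arrays centred on kept genes. Nrxn3 read 0.21 and Cbln3 0.11 higher in hippocampus. None of the 7 passed 1.5-fold lower, against 0.536% of kept genes. Meningeal fibroblast markers were lower in hippocampus for 8 of 8 genes after each treatment, with medians of -1.04 after PBS and -0.67 after ethanol. Thalamic markers were lower for 9 of 10 genes after PBS (median -0.45) and 8 of 10 after ethanol (-0.20). Striatal projection neuron markers were higher for 6 of 10 genes after PBS (median 0.13) and 9 of 10 after ethanol (0.59). Medians went from -0.09 after PBS to 0.10 after ethanol for GABAergic interneurons, and from 0.20 to -0.15 for cortical excitatory neurons. The part of any of these in the tissue differences was not tested.

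Markers of neuronal types differed beside the cerebellins. Thalamic markers read higher after ethanol for 10 of 10 genes in each tissue, with a median of 0.43 in hippocampus (0.19 to 0.87) and 0.19 in forebrain (0.07 to 0.47). Of all kept genes 30.7% read higher in hippocampus and 46.1% in forebrain. The count of 10 thalamic markers held under each scaling tried, with hippocampus medians of up to 0.53. Both centrings raise every ethanol difference within a tissue alike, so they could not lower this count. The list was drawn up with earlier results of these data known. Among them were the transcription factor gene Tcf7l2 (0.84 in hippocampus and 0.47 in forebrain) and the netrin-G gene Ntng1 (0.84 and 0.28). Another was Slc17a6, a vesicular glutamate transporter gene (0.28 and 0.23), which read 9.76 to 10.44 over the 4 arrays. The summed log2 level of the 10 markers was 87.0 and 89.0 in forebrain after PBS and ethanol, and 82.2 and 87.2 in hippocampus. All 10 were above the filter. Their part in the cerebellin differences was not tested.

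By the deposited values, and over all measured genes, the medians of the other types had opposite signs in the tissues, apart from cortical excitatory neurons. Beside the counts below, 30.7% of kept genes were higher after ethanol in hippocampus and 46.1% in forebrain. GABAergic interneuron markers were higher for 10 of 14 genes in hippocampus (median 0.18) and 5 of 14 in forebrain (median -0.07), and Sst, the somatostatin gene of interneurons that are known to use Cbln4, read 10.07 and 9.90 in forebrain and 9.10 and 9.73 in hippocampus. Markers of cortical excitatory neurons were lower for 8 of 9 genes in each tissue, with medians of -0.56 and -0.08, and in forebrain for 6 of 9 with arrays centred on kept genes. Striatal projection neuron markers were higher for 10 of 10 genes in hippocampus (median 0.44) and 3 of 10 in forebrain (median -0.04). Of olfactory bulb mitral and tufted cell markers 5 of 7 were higher in hippocampus and 3 of 7 in forebrain. Their defining gene Cdhr1 read 6.13 on the hippocampus PBS array and 7.79 to 7.99 on the others. Tbx21, Barhl2 and Lhx5 were below the filter, and over the 4 kept genes the medians were -0.01 in hippocampus and -0.15 in forebrain. Hippocampal field markers were higher for 4 of 11 genes in hippocampus (median -0.09) and 8 of 11 in forebrain (median 0.05), but for 7 of 11 (median 0.01) and 9 of 11 (median 0.07) with arrays centred on kept genes. Cerebellar granule cell markers were higher for 3 of 7 and 6 of 7 (medians -0.19 and 0.22), but over the 2 kept genes the medians were -0.27 and -0.02. Meningeal markers were higher for 7 of 8 genes in hippocampus (median 0.19) and 1 of 8 in forebrain (median -0.12). The part of each of these in the members' differences was not tested.

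**Figure D3:**
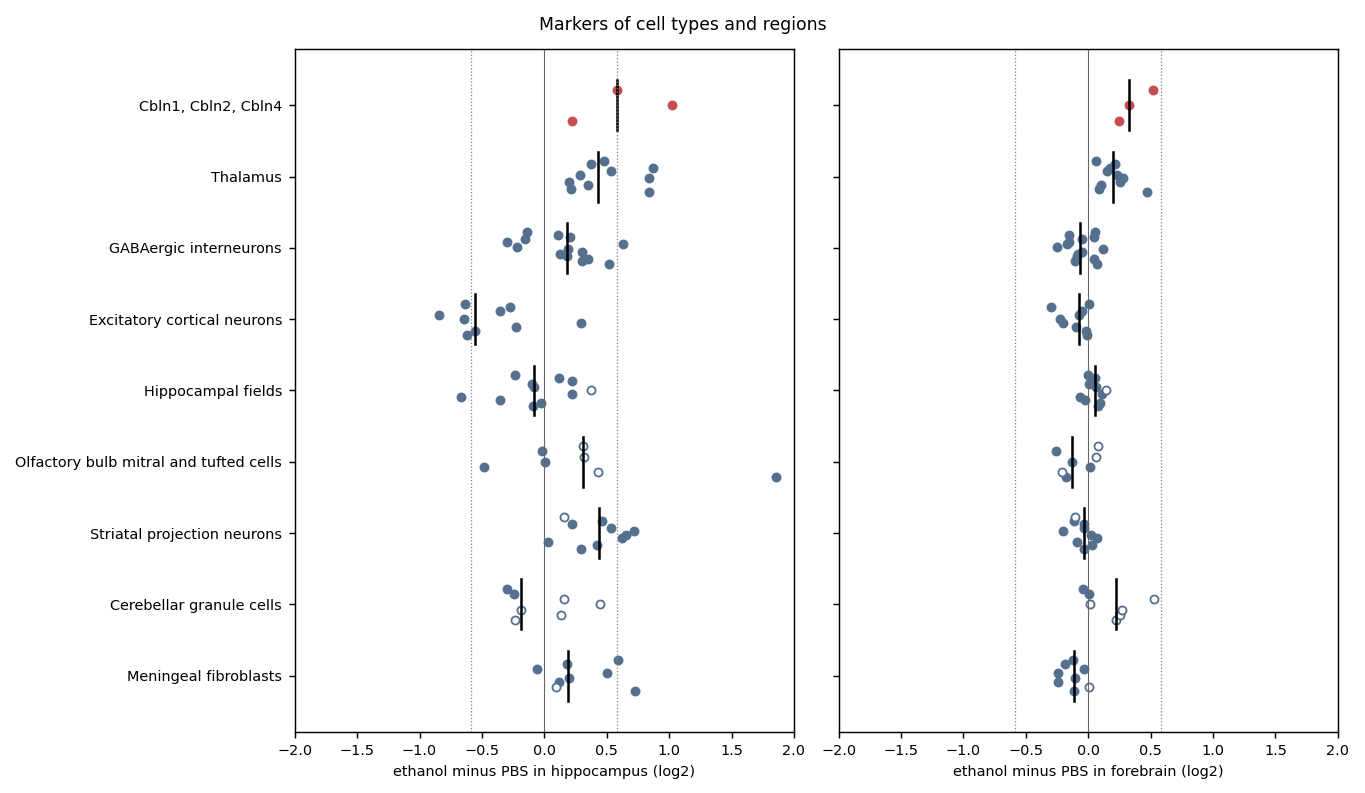
Ethanol minus PBS difference (x axis, log2) in hippocampus (left) and forebrain (right) of Cbln1, Cbln2 and Cbln4 (red) and of each marker gene (blue, open where below the filter), with a black bar at the median of each row and dotted lines at 1.5-fold. The thalamic row, with medians of 0.43 and 0.19, lies to the right of 0 in both panels.

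The genes with the most similar profile were found by the Euclidean distance between log2 values over the 4 arrays, each gene centred on its own mean. This measure was taken over all kept genes with established names. For Cbln1 the nearest were Kcnip4, a potassium channel-interacting protein gene (distance 0.05), Chrna4, a nicotinic acetylcholine receptor subunit gene (0.05), and Slc17a6 (0.06). For Cbln2 they were Olfm3, an olfactomedin gene (0.16), Tcf7l2 (0.17) and Ntng1 (0.18), and for Cbln4 the acetylcholinesterase gene Ache (0.18), Zfp941 (0.20) and the imprinted gene Nap1l5 (0.20). The receptor genes had closer matches: Grid1 by the imprinted non-coding RNA Rian (0.01), the granin gene Chgb (0.03) and the glial glutamate transporter gene Slc1a2 (0.03), Nrxn2 by Gas6, Vwf and Dhrs13 (0.02 each), and Nrxn3 by Ccdc85c, Col16a1 and Arhgap18 (0.02 each). Among the members the closest were Grid1 and Nrxn2 (0.08), then Cbln1 and Grid1 (0.27), while Cbln2 and Nrxn3 were furthest apart (0.71). A flat profile has many near neighbours over 4 arrays, so these distances are a description.

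Other genes of the pathway were taken from 7 fixed lists with 84 genes, of which 78 were measured and 71 passed the filter. Over both tissues limma, with tissue as an additive term and Benjamini-Hochberg adjustment over all kept genes, called 0 of the 71 for ethanol, as it called 0.0% of all kept genes. At an unadjusted p of 0.05 it gave 2 higher and 0 lower of the 71, and 375 higher and 700 lower of all 11013. The lowest adjusted p by limma among the 71 was 0.256, for Nova1. This fit, with 1 residual degree of freedom, takes the difference between the tissues' responses as its error.

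Neuroligins, netrin receptors and other neurexin ligands had no gene past 1.5-fold after ethanol. The neuroligin genes, whose products also bind neurexins, read -0.25 (Nlgn1), -0.13 (Nlgn2) and 0.07 (Nlgn3) in hippocampus and 0.05, -0.13 and 0.02 in forebrain. The netrin receptor genes Dcc and Neo1 read -0.07 and -0.10 in hippocampus, where 1 of the 2 was higher with arrays centred on kept genes. Of 19 other neurexin ligands 7 were higher and 12 lower in hippocampus (median -0.14), and 11 were higher and 8 lower in forebrain (median 0.02). Over all kept genes, as deposited, 30.7% were higher in hippocampus (median -0.08) and 46.1% in forebrain (median -0.01). Those furthest from 0 in hippocampus were the calsyntenin gene Clstn2 at -0.49, Lrrtm1, which encodes a postsynaptic leucine-rich repeat protein, at -0.41, and Tafa4, which encodes a secreted protein and was below the filter, at 0.41.

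Relatives of the cerebellins, the C1q-like genes and their receptor genes, had 6 of 9 members higher in hippocampus (median 0.12) and 5 of 9 in forebrain (median 0.01). For this and the lists below, the shares of all kept genes, as deposited, were 30.7% in hippocampus and 46.1% in forebrain. The hippocampus count became 9 of 9 (median 0.22) with arrays centred on kept genes and 8 of 9 (0.16) after quantile normalization. Quantile normalization also turned the forebrain median to -0.01. C1ql4, which encodes a secreted C1q-like protein, read 5.99 and 6.51 in forebrain after PBS and ethanol and 6.07 and 6.85 in hippocampus, higher after ethanol by 0.52 and 0.79, with all values below the filter. Intracellular partners had 7 of 11 genes higher in hippocampus (median 0.03, or 0.13 with centring on kept genes) and 9 of 11 in forebrain (median 0.05), led by the adaptor gene Lin7a at 0.33 in hippocampus. Other synaptic organizers were higher for 11 of 26 in hippocampus (median -0.03) and 15 of 26 in forebrain (median 0.04). The hippocampus median turned to 0.07 (16 of 26 higher) with centring on kept genes and to 0.01 (13 of 26) after quantile normalization. Among them Slitrk6, a leucine-rich repeat membrane protein gene, read 4.60 on the hippocampus PBS array and 5.54 to 5.72 on the others, all below the filter.

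Splicing regulators, which include the SAM68 family that is known to act on neurexin SS4, had 2 of 7 genes higher in hippocampus (median -0.08) and 4 of 7 in forebrain (median 0.00). The shares over all kept genes were 30.7% and 46.1%. With centring on kept genes the hippocampus median turned to 0.02 (4 of 7 higher), and after quantile normalization the forebrain median was -0.02. Khdrbs1, Khdrbs2 and Khdrbs3 of that family read 0.18, -0.28 and -0.16 in hippocampus and -0.10, -0.03 and 0.07 in forebrain. Nova1, a neuronal splicing regulator that was listed with its earlier values known, read 9.99 and 10.42 in forebrain after PBS and ethanol and 9.25 and 10.12 in hippocampus, higher after ethanol by 0.43 and 0.86. limma called it with an adjusted p of 0.0268 after quantile normalization and 0.0233 with the 75th percentile filter, in a range of 0.0233 to 0.838 over 8 alternatives.

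**Figure D4:**
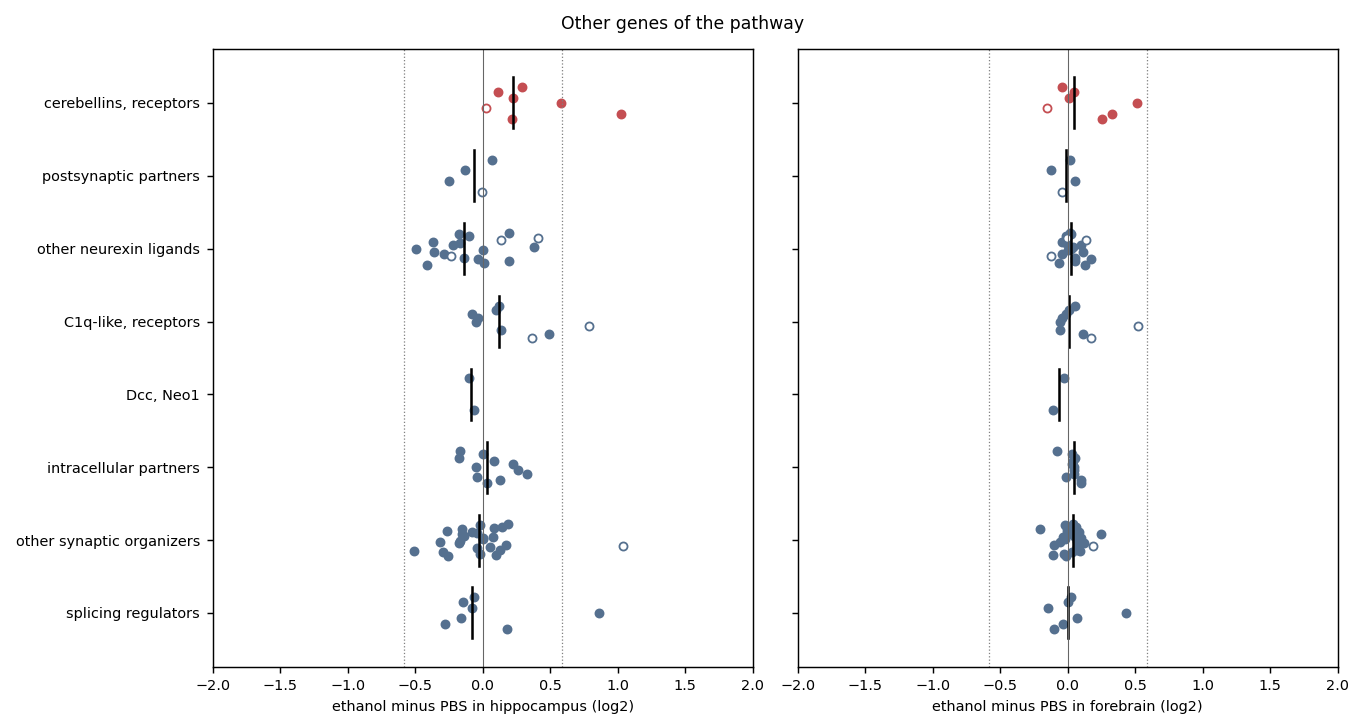
Ethanol minus PBS difference (x axis, log2) in hippocampus (left) and forebrain (right) for the 7 members (red) and the genes of the 7 other pathway lists (blue, open where below the filter), with a black bar at each median and dotted lines at 1.5-fold. The medians of the other lists, as deposited, lie between -0.14 and 0.12, with signs that turn under other scalings for some, and the single kept gene past 1.5-fold outside the members is Nova1 in hippocampus, at 0.86.

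Between tissues, over both treatments, limma called 2 of the 71 pathway genes, both lower in hippocampus, where 1.13% of kept genes were called. Tafa1, which encodes a small secreted neurexin ligand, was lower by -0.83 (SE 0.081, adjusted p = 0.0175, limma), with levels of 9.18 and 9.16 in forebrain and 8.42 and 8.25 in hippocampus. C1ql3, a secreted C1q-like synapse organizer, was lower by -0.55 (SE 0.090, adjusted p = 0.044, limma), with 7.86 and 7.81 in forebrain and 7.22 and 7.35 in hippocampus. For each the hippocampus arrays lay below both forebrain arrays. Tafa2, a relative of Tafa1, was past 1.5-fold lower after ethanol (-0.65) and not after PBS (-0.32), and its adjusted p by limma over both was 0.0634 (0.00669 to 0.261 over 8 alternatives, called in 3). Nova1 was lower in hippocampus by -0.73 after PBS and -0.30 after ethanol. C1ql3 lost its call in 4 of 7 alternatives (adjusted p by limma up to 0.152), and Tafa1 lost it in 1 of 8, without the treatment term (0.0883).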

How the data were processed

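Biotinylated cRNA from 6 ug of Trizol-extracted total RNA was hybridised to 1 array for each of the 4 groups, per the labels' protocols. MAS5 is named in the submitters' processing notes. How it was run (version, background correction, normalization, summarization) is not given in the sources used here. Values are the authors' deposited log2 values, a scale read from their range (1.58 to 13.96). The number of arrays limits the precision.

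Probe sets were named by the platform annotation: of 35557, 21789 had 1 symbol, 1621 several and 12147 none. The probe set with the highest mean stood for each gene. Ethanol and PBS, and the tissues, were compared by subtracting the log2 values of 2 arrays, with a 1.5-fold threshold and no test. limma 3.58.1 in R 4.3.3 was fitted to all 11013 kept genes on treatment plus tissue, using eBayes (trended) and a Benjamini-Hochberg threshold of 0.05. Its p-values reflect only how these arrays scatter. The fit was tested on simulated data with 200 changed genes, whose scatter was drawn from the fit's own prior. Each simulated ethanol change was the same in both tissues, and each tissue change the same after both treatments. The rates therefore do not apply to changes that differ between tissues or treatments. On the real arrays the fit called 0 genes for ethanol. For ethanol it called 99% of 2-fold and 95% of 1.5-fold changes, and 14 unchanged genes. For tissue it called 100% and 98%, and 28 unchanged genes, so some calls between tissues can be false. Other steps used Python 3.11.15 (pandas 2.3.3, numpy 2.4.6) and, for plots, matplotlib 3.10.9.

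The members, lists and rules were chosen with earlier results of these data known. The text names all members, the 3 nearest genes to each kept member, and the genes of each list past 1.5-fold in any comparison or called by limma, or else up to 4 with the largest hippocampus ethanol differences. Marker genes, Clstn2, Lrrtm1, Tafa4, Lin7a and the Khdrbs genes were picked for naming after their values were seen. Alternatives were other scalings, filters, probe set rules, folds and fits, and centring on kept genes was added after the data had been seen.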

Additional observations from a re-analysis of the deposited data

Results flagged for a closer look

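Ethanol differences of opposite sign in the tissues, of 1 array pair each, were found for 14 of the genes whose ethanol values are given. For Nrxn3 the difference in hippocampus (0.29) exceeded that in forebrain (-0.04) by 0.33. For Cbln3, below the filter on every array, it was 0.02 against -0.16, an excess of 0.18. Of the other 12, those higher in hippocampus and lower in forebrain had an excess of 2.03 (Cdhr1), 0.80 (Sst), 0.42 (Tafa4), 0.28 (Khdrbs1) and 0.19 (C1ql3). Those lower in hippocampus and higher in forebrain had -1.22 (Eif2s3y), -0.54 (Lrrtm1), -0.51 (Clstn2), -0.46 (Atoh1), -0.45 (Gabra6), -0.30 (Nlgn1) and -0.23 (Khdrbs3). None of these was tested, since no group has a second array, and 38.5% of kept genes had opposite signs.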

How the results depend on the processing

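All 112 values of the members under alternatives stayed within 1 SD of the differences over kept genes, with shifts of at most 0.10. Of these values 3 changed sign, those of Cbln2 and Cbln3 given above. With 1 probe set per member, the probe set rule could not move any value. Either centring shifts a difference alike for all genes, by less than these SDs. Only quantile normalization could thus have moved a member past 1 SD. Of 88 counts under alternatives, 40 stayed within 1.5 times the deposited scaling's count. At 2-fold, 6 genes were higher and 1 lower after ethanol in hippocampus, 0 and 0 in forebrain, 0 and 28 in hippocampus against forebrain after PBS, and 4 and 1 after ethanol. The 75th percentile filter gave 23 and 30, 1 and 1, 1 and 36, and 8 and 17 in the same order at 1.5-fold, with fewer genes tested. Without a filter these were 131 and 77, 24 and 22, 37 and 200, and 74 higher in the last. Centring on kept genes gave 116 and 19 in hippocampus, 1 lower in forebrain, and 32 and 31 between tissues after ethanol, and quantile normalization gave 88 and 31 in hippocampus. For these scalings the cause was not tested. Over both tissues limma called 12 higher and 2 lower genes for ethanol after quantile normalization, 1 and 1 with centring on kept genes, and 5 and 2 under the filter at the 75th percentile. Between tissues it called 12 higher and 112 lower genes. This became 172 lower with array centring, 70 and 346 after quantile normalization, 21 and 45 with centring on kept genes, 23 higher with the 75th percentile filter, 4 and 33 without a filter, 2 and 25 without a trend, and 0 and 0 without the treatment term (232 and 1023 at an unadjusted p of 0.05). The cause was not tested. No paired analysis was possible because each group has 1 array and the labels give no replicate numbers, and no array can be left out of the fit, which has 1 residual degree of freedom.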
